A study of Rattus norvegicus with 16 samples.

Results

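Hypoxia and glycolysis genes were followed through intervertebral disc (IVD) tissue of the rat lumbar spine after needle puncture, with and without injury, in single-cell RNA sequencing. The group was chosen by name, with earlier results of these data known, and holds 10 genes: Slc2a1, Aldoa, Pgk1, Eno1, Ldha, Bnip3, Higd1a, Egln3, Vegfa and Stc2. All 10 are among the 13596 genes listed in every one of the 16 libraries. Male Sprague-Dawley rats aged 8 weeks had the discs L4-5 and L5-6 each stabbed once with a 27G needle, and the tissue was taken 2 weeks later from 4 rats and 8 weeks later from another 4. From each rat the 2 stabbed discs were pooled into 1 library (LDP, lumbar disc puncture) and the 2 unstabbed discs above them, L2-3 and L3-4, into a second (CON, control), which gave 4 libraries in each of the 4 groups. The control discs thus came from operated animals and from other disc levels, so injury and disc level cannot be told apart. Rats are numbered 1 to 4 at 2 weeks and 5 to 8 at 8 weeks, after the numbers in the library titles. CON and LDP libraries of equal number were taken as the same rat, which the titles do not state. Time, age, processing and the clustering done separately for each group cannot be told apart either.

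The disc is the largest avascular tissue of the body, and its cells live on glycolysis at low oxygen tension. Oxygen is read by prolyl hydroxylases (the Egln genes), which mark the alpha subunits of hypoxia-inducible factor (HIF) for destruction. When oxygen is short the alpha subunit persists, joins Arnt and binds a short DNA element in genes for glucose uptake, glycolysis, mitochondrial adjustment and secreted signals. Since this control acts on the protein, Hif1a transcript level is no measure of HIF activity. Nucleus pulposus cells are known for keeping HIF-1 alpha present even in normal oxygen.

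The core of that DNA element is ACGTG, read as CACGT on the other strand. RefSeq promoter windows of the rat build GRCr8 were found for 9 of the 10 genes, with 13 windows among them, and none was at hand for Pgk1. Within the 250 bases before a start site, ACGTG or CACGT occurred for 5 of the 9 genes (Ldha, Aldoa, Bnip3, Slc2a1 and Higd1a), in 5 of the 13 windows, against 16.6% of 33469 windows of the same length. The related core GCGTG or CACGC occurred for 5 of the 9 genes (Ldha, Bnip3, Slc2a1, Eno1 and Higd1a), in 6 of the 13 windows, against 25.9% of windows. These letters are a description and not a shown binding site. The stretches below belong to members whose levels are described next, with the core in capitals.
Higd1a, chr8:130401051-130401105, minus strand: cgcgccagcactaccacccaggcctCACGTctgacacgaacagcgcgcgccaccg
Ldha, chr1:106507980-106508048, plus strand: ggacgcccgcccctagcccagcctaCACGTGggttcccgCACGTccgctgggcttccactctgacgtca
Slc2a1, chr5:138002446-138002500, plus strand: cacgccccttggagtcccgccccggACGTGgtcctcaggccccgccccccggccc
Bnip3, chr1:203155031-203155086, minus strand: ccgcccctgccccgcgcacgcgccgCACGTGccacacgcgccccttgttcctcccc

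The libraries held 2221 to 15918 cells each, 149272 in all, with a median of 3861 to 8092 unique molecular identifiers (UMIs) per cell. Values below are CPM (UMIs of a gene scaled to a fixed total per cell) averaged over the cells of a population in 1 library, so the library and not the cell is the replicate. The IVD class took 59.1 to 96.7% of the cells of a library and held all 5 of its markers (Acan, Col2a1, Sox9, Comp and Fmod) in every library. A few libraries stood apart. In IVD cells, LDP rat 4 and LDP rat 5 had the highest median share of ribosomal reads, 16.3% and 17.9% against 10.3 to 15.4% in the other 14 libraries. CON rat 2 had the smallest 2-week library and a summed level of early-response genes (Fos, Jun, Egr1 and others) of 6413 CPM in IVD cells, against 1777 to 1983 CPM in the other CON libraries at 2 weeks. The largest number of cell barcodes that any pair of libraries shared was 75, and the largest share of the smaller library, in another pair, was 0.720%.

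In IVD cells 2 weeks after puncture, 8 of the 10 genes stood higher on average in LDP than in CON discs of the same rats, and 1 of them, Higd1a, rose past the threshold with a 1.78-fold higher level. The test was a limma fit of log2(mean CPM + 1) with the rat as a block, and genes were called at an adjusted p under 0.05 over all 11150 genes tested. Of those genes 0.179% were called, and 36.0% had a positive difference. The median difference of the 10 genes was 0.36 on the log2 scale against -0.08 over all genes. An unadjusted p under 0.05 was reached by 6 of the 10 and by 1302 of all 11150 genes. Vegfa and Slc2a1 were the members with negative differences. Levels of single rats follow. How many of all genes went 1 way in every rat, or had groups that did not overlap, was not counted. This holds at both times and in the subclusters.

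**Figure D1:**
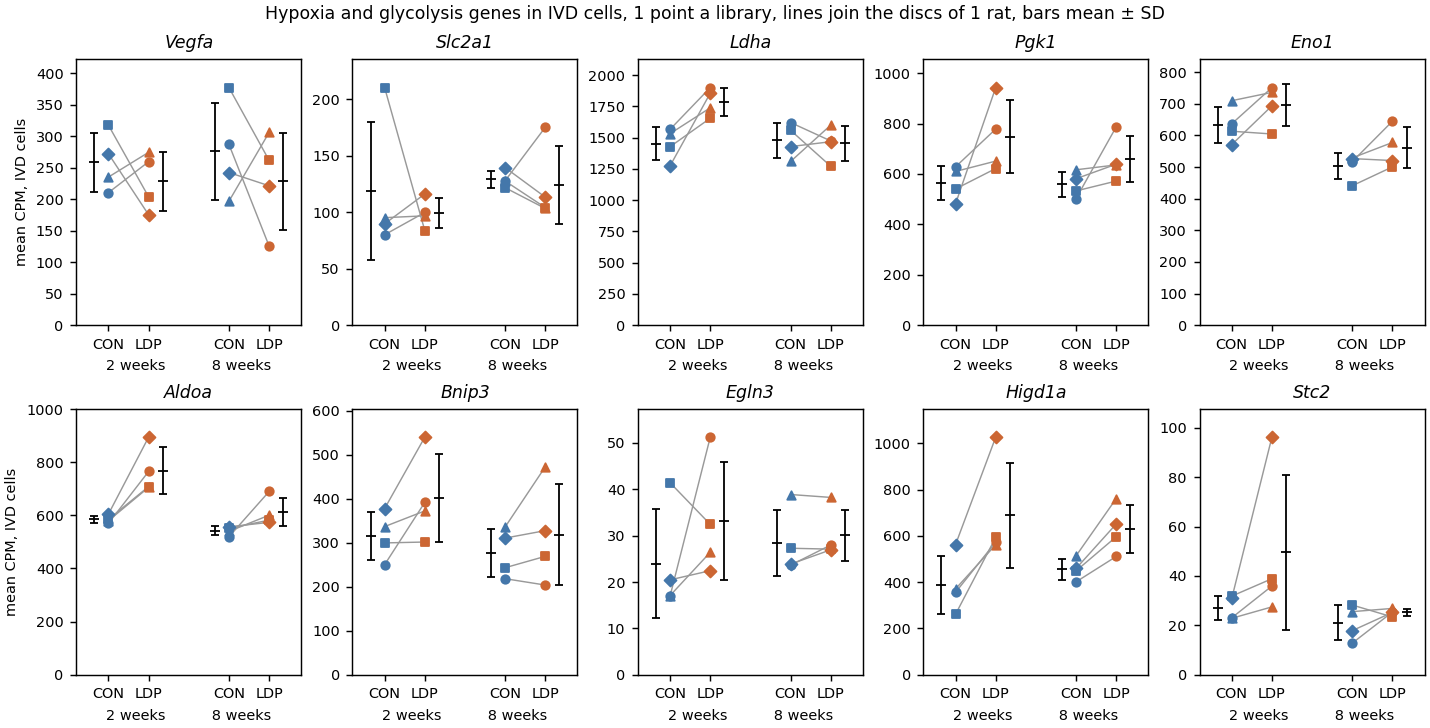
Mean CPM of each of the 10 genes in IVD cells of every library, with CON in blue and LDP in orange at 2 and 8 weeks; lines join the discs of 1 rat, and bars give the mean and SD of 4 libraries. At 2 weeks every line of Higd1a, Ldha, Aldoa, Pgk1, Bnip3 and Stc2 slopes upward from CON to LDP, and the Slc2a1 mean of CON discs is raised by rat 2. How many of all genes slope upward in every rat was not counted.

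Higd1a encodes a small protein of the inner mitochondrial membrane that is induced in hypoxia. Its level in CON discs at 2 weeks was 356, 261, 371 and 562 CPM in rats 1 to 4. In LDP discs of the same rats it was 573, 593, 562 and 1026 CPM. LDP exceeded CON in each rat, and across rats the groups overlapped only in that CON of rat 4 lay a fraction of a CPM above LDP of rat 3. The difference was 0.83 ± 0.12 (SE) on the log2 scale (limma, adjusted p = 0.0416), from a mean of 387 ± 126 to 689 ± 225 CPM (SD, n = 4). Its size kept between 0.72 and 0.93 over 19 alternative settings. Among them, leaving out an 8-week rat, changing the filter or dropping the block cannot move that size. The adjusted p passed 0.05 whenever any 1 of the 8 rats in the shared fit was left out, with values from 0.0537 to 0.122. It also did so without the rat block, with a pseudocount of 10, and with equal weight to the 3 subclusters, up to 0.216.

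Bnip3, a mitochondrial protein that promotes mitophagy, was at 250.1, 299.6, 337 and 378 CPM in CON discs of rats 1 to 4. The LDP discs read 392, 302, 372 and 539.9 CPM. Each rat's LDP disc was the higher one, by only a few CPM in rat 2, and the groups overlapped. The difference of 0.33 ± 0.14 did not pass (adjusted p = 0.396).

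Among the enzymes of glycolysis, Aldoa (aldolase A, which splits fructose-1,6-bisphosphate) had CON levels of 569.5, 584.5, 579.8 and 604 CPM. Its LDP levels were 765, 708, 705 and 894 CPM. These groups did not overlap and the difference was 0.39 ± 0.10, with an adjusted p of 0.209. Ldha, the lactate dehydrogenase subunit that turns pyruvate into lactate, was at 1566, 1427, 1531 and 1273.5 CPM in CON discs. LDP discs held 1899.7, 1655, 1738 and 1855 CPM of it. Here too the groups were apart, by 0.30 ± 0.12 (adjusted p = 0.361). Pgk1, phosphoglycerate kinase, stood at 628, 540.5, 609.9 and 481 CPM in CON discs. In LDP discs it was at 778, 621.5, 651 and 943 CPM. All 4 rats had the higher level in LDP, with the widest gap in rat 4, and the difference of 0.39 ± 0.16 did not pass (adjusted p = 0.381) and was 0.20 without rat 4. Eno1, enolase 1, was close to level, at 637, 613, 709.7 and 571 CPM in CON discs and 751, 604, 736 and 693.5 CPM in LDP discs. The groups overlapped, 3 of 4 rats were higher in LDP, and the difference was 0.14 ± 0.10 (adjusted p = 0.593), or 0.090 without rat 4.

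Slc2a1 (GLUT1), the glucose transporter that feeds this pathway, went with no common direction. Its CON levels were 80.02, 210, 95.2 and 89.7 CPM in rats 1 to 4, so rat 2 was more than any other library of the series. The LDP levels were 99.8, 83.7, 96.8 and 116 CPM. Rats 1, 3 and 4 were higher in LDP and rat 2 lower, which gave -0.15 ± 0.25 (adjusted p = 0.809). Without rat 2 the difference turned to 0.24. The early-response level of that CON library, given above, was not tested for its part in this.

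Egln3, the prolyl hydroxylase that is itself induced through HIF, was at 17.0, 41.4, 17.1 and 20.5 CPM in CON discs. LDP discs had 51.2, 32.4, 26.4 and 22.4 CPM. The CON library of rat 2 again stood above its group, the other 3 rats were higher in LDP, rat 1 by the most, and the difference was 0.48 ± 0.24 (adjusted p = 0.456). It was 0.13 without rat 1 and 0.76 without rat 2.

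The secreted members differed from each other. Stc2, stanniocalcin 2, was at 23.1, 31.8, 22.9 and 30.9 CPM in CON discs and at 35.9, 38.9, 27.5 and 96.2 CPM in LDP discs. LDP was higher in all 4 rats, far more so in rat 4 than in the rest, and the difference of 0.69 ± 0.24 did not pass (adjusted p = 0.336) and was 0.38 without rat 4. Vegfa, the vascular growth factor that nucleus pulposus cells secrete, was at 210, 317, 235 and 272 CPM in CON discs and 259, 204, 274 and 175 CPM in LDP discs. The groups overlapped, 2 rats went each way, and the difference was -0.19 ± 0.26 (adjusted p = 0.769), between -0.35 and -0.036 with single rats left out.

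Markers of other disc and non-disc cells were summed in the IVD class at 2 weeks. The 6 markers of the outer annulus summed to 8681 to 15017 CPM in CON and 6663 to 13307 CPM in LDP discs. The 5 markers of the nucleus pulposus summed to 707 to 1085 and 867 to 1492 CPM. The 6 endothelial markers summed to 22.3 to 112 CPM in CON and 12.2 to 21.5 CPM in LDP, and the 5 myeloid markers to 22.3 to 79.98 and 45.2 to 79.0 CPM. Lymphoid markers summed to 0.805 to 4.07 CPM in CON and 0.948 to 42.4 CPM in LDP, and the 4 listed erythroid markers to 16.1 to 464 and 1.81 to 1375 CPM. Early-response genes summed to 1359 to 1728 CPM in LDP discs, below every CON disc. The median UMIs per IVD cell were 4226 to 7640 in CON and 4993 to 7924 in LDP libraries, and the median mitochondrial share 3.27 to 4.08% and 2.93 to 3.60%. The median ribosomal share was 10.3 to 13.0% in CON and 11.002 to 16.3% in LDP libraries. Their part in the differences was not tested.

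The share of IVD cells with at least 1 UMI of a gene was measured as well. After each cell was thinned to 1000 UMIs, Higd1a was seen in 29.0 ± 7.05% of cells in CON and 43.5 ± 7.90% in LDP discs at 2 weeks (SD, n = 4). Without thinning the shares were 71.6 ± 6.95% and 84.8 ± 4.65%. Thinned shares were 42.9 ± 0.912% and 51.4 ± 3.37% for Aldoa, and 67.3 ± 3.17% and 73.8 ± 2.16% for Ldha. For these 3 genes the thinned groups did not overlap, and a two-sided exact permutation test gave p = 0.0286, the smallest that 4 against 4 libraries allow, or 0.0952 adjusted over the members. This test did not use the pairing of discs by rat, and a paired sign flip over 4 rats could not reach 0.05 whatever the values. For Vegfa the thinned share was 21.0% in CON and 19.2% in LDP discs (exact permutation p = 0.371). At 8 weeks the thinned groups of Higd1a (33.4% in CON and 42.6% in LDP) and Aldoa (40.5% and 44.2%) did not overlap either. The exact permutation p was again 0.0286 for both, or 0.143 adjusted. Shares were computed for the members only, so how many of all genes would lie apart in this way is not known.

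At 8 weeks after puncture none of the 10 genes was called in IVD cells, where 0.269% of 11150 genes were called and 28.7% had a positive difference. Of the 10 members 7 had positive differences, with a median of 0.15 against -0.16 over all genes. TMM scaling moved the median of all genes by 0.15, to -0.01, and with it that of the members to 0.32. Higd1a was nearest the threshold. Its level was 401, 449, 513.5 and 459 CPM in CON discs of rats 5 to 8. In LDP discs it was 511, 596, 761 and 651 CPM. LDP exceeded CON in all 4 rats by 0.35 to 0.57 on the log2 scale of the ratio, and the fit gave 0.46 ± 0.12 (adjusted p = 0.0983). DESeq2 called it with an adjusted p of 0.00309, and limma did without rat 4, whose libraries share the estimate of the spread (adjusted p = 0.0480).

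Markers were summed in the IVD class at 8 weeks as well. The outer annulus markers summed to 2388 to 4268 CPM in CON and 1012 to 2751 CPM in LDP discs, and the nucleus pulposus markers to 832 to 1032 and 1016 to 1158 CPM. Endothelial markers summed to 7.00 to 12.7 and 6.58 to 7.81 CPM, myeloid markers to 50.1 to 77.8 and 51.0 to 101 CPM, and lymphoid markers to 0.892 to 23.5 and 1.49 to 5.88 CPM. The 4 listed erythroid markers summed to 7.62 to 3023 CPM in CON and 31.1 to 1374 CPM in LDP discs. Rat 5 had the highest erythroid sum in both groups. Early-response genes summed to 1914 to 3039 CPM in CON and 1048 to 3200 CPM in LDP discs. The median ribosomal share of IVD cells was 13.2 to 14.5% in CON and 14.7 to 17.9% in LDP libraries, without overlap. The median UMIs per cell were 5162 to 7667 and 6427 to 9889, and the median mitochondrial share 3.47 to 4.52% and 3.21 to 4.025%. Their part in the 8-week differences was not tested.

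Aldoa was at 519, 551, 539.5 and 557 CPM in CON discs at 8 weeks and at 689.8, 582, 600.4 and 573.5 CPM in LDP discs. The groups did not overlap and LDP was higher in all 4 rats, yet the difference of 0.17 ± 0.10 did not pass (adjusted p = 0.354) and was 0.092 without rat 5. Pgk1 was at 502.5, 533, 616.5 and 581 CPM in CON and 787, 572, 636 and 639 CPM in LDP discs. It too was higher in LDP in all 4 rats, by 0.23 ± 0.16 (adjusted p = 0.395), with most of the gap in rat 5 and a value of 0.094 without it. Eno1 read 517, 441, 529 and 527 CPM in CON and 645, 500.4, 577.5 and 520.4 CPM in LDP discs. Rats 5 to 7 were higher in LDP and rat 8 was not, for a difference of 0.15 ± 0.10 (adjusted p = 0.396), or 0.098 without rat 5.

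Ldha, apart between the groups at 2 weeks, was not so at 8 weeks. It was at 1620.2, 1558, 1309 and 1428 CPM in CON and at 1473, 1270.2, 1600.1 and 1467 CPM in LDP discs. Rats split evenly and the difference was -0.03 ± 0.12 (adjusted p = 0.907), turning to 0.15 under TMM scaling. Slc2a1 was at 128, 122, 128 and 139.5 CPM in CON and 175, 103, 104 and 113 CPM in LDP discs. LDP was lower in rats 6 to 8 and higher in rat 5, and the difference of -0.09 ± 0.25 (adjusted p = 0.840) turned to 0.08 under TMM scaling and was -0.27 without rat 5.

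Bnip3 was at 218, 243, 336 and 311 CPM in CON and 204, 269, 473 and 328 CPM in LDP discs at 8 weeks. The groups overlapped widely (0.15 ± 0.14, adjusted p = 0.515), with 0.041 without rat 7. Egln3 stood at 23.6, 27.3, 38.9 and 23.9 CPM in CON and 27.99, 27.1, 38.2 and 26.9 CPM in LDP discs. Rat 7 was high in both of its libraries, and the difference was 0.09 ± 0.24 (adjusted p = 0.831). Stc2 was at 12.8, 28.2, 25.6 and 17.9 CPM in CON and 25.4, 23.4, 26.9 and 25.3 CPM in LDP discs. Its LDP libraries lay within the CON range (0.31 ± 0.24, adjusted p = 0.464), and the difference was 0.095 without rat 5. Vegfa was at 287, 377, 197 and 242 CPM in CON and 125, 262, 306 and 221 CPM in LDP discs. The spread within each group exceeded the difference of -0.30 ± 0.26 (adjusted p = 0.502), and rat 7 alone was higher in LDP. Without rat 5 it was -0.0073 and without rat 7 -0.61.

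Whether the response differed between the times was tested as the difference of the LDP effects, 8 minus 2 weeks. No member passed, and 0% of 11150 genes were called by limma, with 186 at an unadjusted p under 0.05, 0 called by edgeR and 12 by DESeq2. Higd1a had a difference of -0.38 ± 0.16 (unadjusted p = 0.0423, adjusted p = 1.00), Ldha one of -0.33 ± 0.16, and Egln3 and Stc2 ones of -0.39 ± 0.34 each. Without rat 1 that of Egln3 was -0.035, and without rat 4 that of Stc2 was -0.080. Of the 10 differences 8 were negative, with a median of -0.20 against -0.07 over all genes, of which 33.5% had a positive difference. In CON discs alone, 8 against 2 weeks, 18.9% of 11224 genes were called. Among the members Eno1 fell by 0.33 ± 0.10 on the log2 scale (adjusted p = 0.0466), from 633 ± 58.2 to 503 ± 42.0 CPM with no overlap. Between the same libraries the IVD markers summed to 19557 to 28739 CPM at 2 weeks and 9031 to 13591 CPM at 8 weeks, and the outer annulus markers to 8681 to 15017 and 2388 to 4268 CPM. The ribosomal share was 10.3 to 13.0% and 13.2 to 14.5%. Their part was not tested. Under TMM scaling, edgeR, DESeq2 and several other settings the Eno1 call was lost, with adjusted p up to 0.136, while the difference kept between -0.38 and -0.27. Slc2a1 in CON discs was at 119 ± 61.3 CPM at 2 weeks and 129 ± 7.46 CPM at 8 weeks (adjusted p = 0.547). Without rat 2 it was called, together with Egln3, with adjusted p of 0.00530 and 0.0363, and Higd1a was called without rat 4 (adjusted p = 0.0477).

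**Figure D2:**
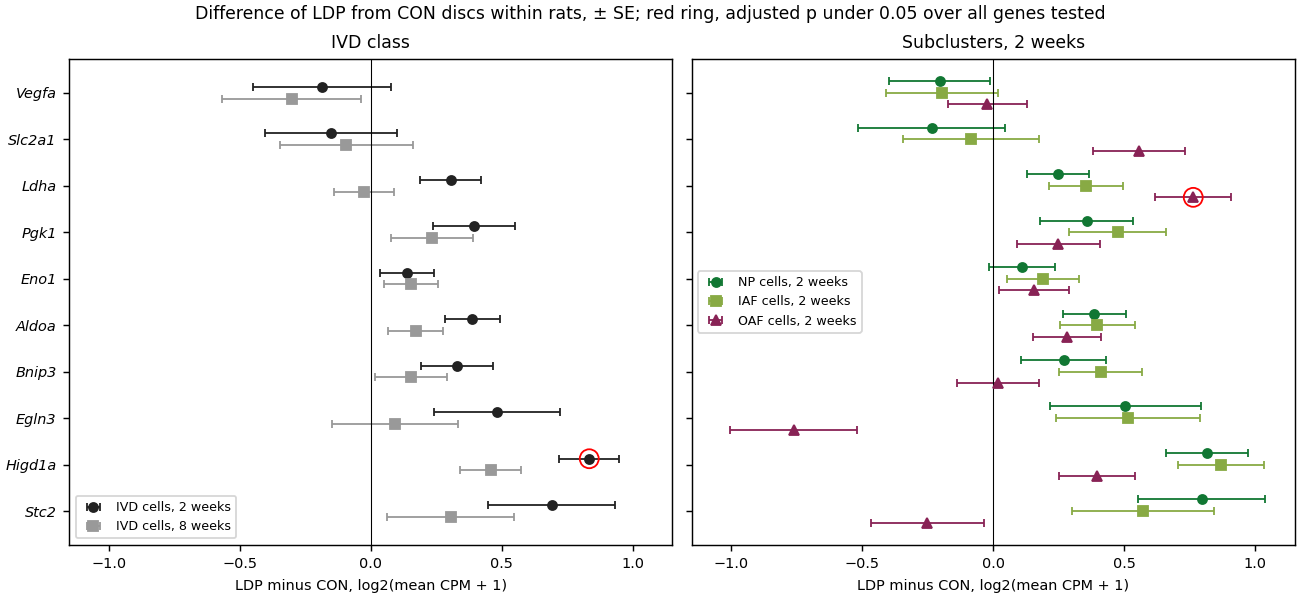
LDP minus CON difference (log2 scale, limma) of each member with its standard error, in IVD cells at 2 and 8 weeks and in the NP, IAF and OAF subclusters at 2 weeks; a red ring marks a difference called at an adjusted p under 0.05. The rings lie on Higd1a in IVD cells at 2 weeks (0.83) and on Ldha in OAF cells (0.76).

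Taken over all cells of a library, limma called no member at either time, and DESeq2 called Higd1a at both. At 2 weeks 0% of 11787 genes were called (1085 at an unadjusted p under 0.05, 0 by edgeR and 147 by DESeq2), and at 8 weeks 0.00848% were. Higd1a differed by 0.77 ± 0.13 (adjusted p = 0.348) at 2 weeks and by 0.41 ± 0.13 (adjusted p = 0.434) at 8 weeks, and it was higher in LDP in all 8 rats.

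The other genes of the pathway were read from 3 lists. Of 20 further genes of glucose handling, 18 were tested in IVD cells at 2 weeks and none was called, 11 of them standing higher and 7 lower with a median of 0.15. Pdk1, the kinase that keeps pyruvate out of the mitochondria, differed by 0.72 ± 0.16 (adjusted p = 0.131). Slc16a3, a lactate exporter, differed by 0.57 ± 0.16 (adjusted p = 0.242). Pfkfb3, which makes the activator of phosphofructokinase, had a difference of -0.82 ± 0.23 (adjusted p = 0.238), and Slc16a1, a second carrier of lactate, one of -0.45 ± 0.22 (adjusted p = 0.444). Both were lower in LDP in all 4 rats. At 8 weeks none of the 18 was called either, with 8 higher and 10 lower and a median of -0.17. Slc16a1 (-0.69 ± 0.22, adjusted p = 0.142) and Pfkfb3 (-0.71 ± 0.23, adjusted p = 0.156) again had the lowest values. Aldoc (0.38 ± 0.18, adjusted p = 0.260) and Gapdh (0.45 ± 0.15, adjusted p = 0.156) had the highest. The Gapdh value is to be read with care, since the gene has many near-identical copies whose part was not tested.

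Of 10 genes of oxygen sensing 8 were tested in IVD cells, and none was called at 2 or at 8 weeks. Hif1a was at 2045, 1941, 2090.4 and 2438 CPM in CON discs at 2 weeks and at 2811, 1977, 2164 and 1040.5 CPM in LDP discs. LDP rat 4, which had the highest Higd1a, had the lowest Hif1a of all 16 libraries, and the difference of -0.17 ± 0.23 turned to 0.18 without that rat. At 8 weeks Hif1a differed by -0.04 ± 0.23 and Epas1, which encodes HIF-2 alpha, by -0.07 ± 0.15, both turning positive under TMM scaling. Arnt had the lowest value at both times, -0.32 ± 0.31 and -0.58 ± 0.31, and Egln2 was at -0.33 ± 0.15 at 8 weeks. At 2 weeks Egln1 stood at 0.19 ± 0.17 and Cited2, which competes with HIF for a coactivator, at 0.08 ± 0.16.

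Of 20 other HIF targets, all tested, 2 rose in IVD cells at 2 weeks and none fell, beside 0.179% of all genes called in either direction, with 12 positive differences and a median of 0.33. Car12, a membrane carbonic anhydrase, was at 3.50, 2.83, 2.54 and 3.69 CPM in CON and 9.95, 8.05, 6.25 and 8.23 CPM in LDP discs. Its groups did not overlap and it rose by 1.13 ± 0.16 (adjusted p = 0.0416). Fam162a, a mitochondrial protein induced in hypoxia, was at 199, 159.9, 184 and 207 CPM in CON and 331, 316, 263 and 403 CPM in LDP discs. It rose by 0.79 ± 0.12 (adjusted p = 0.0416), also without overlap. Both calls were lost without the rat block, with a pseudocount of 10 and with equal weight to the 3 subclusters. That of Car12 was lost with any 1 of the 8 rats left out except rat 5, with adjusted p up to 0.122. That of Fam162a was lost with any 1 rat left out (0.0537 to 0.151) and by edgeR (0.0752). Adm, adrenomedullin, was at -0.51 ± 0.15 (adjusted p = 0.235) and Bhlhe40, a transcription factor, at -0.86 ± 0.32 (adjusted p = 0.358), both lower in LDP in all 4 rats. At 8 weeks Car12 was called again among the 20 (1.20 ± 0.16, adjusted p = 0.0187), where 0.269% of all genes were, and lost without rat 6, 7 or 8 (adjusted p = 0.104, 0.116 and 0.0783). Fam162a was at 0.62 ± 0.12 (adjusted p = 0.0641), Stc1 at -0.94 ± 0.37 (adjusted p = 0.206) and Bhlhe40 at -0.58 ± 0.32 (adjusted p = 0.320), and the median of the 20 was 0.05.

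At 2 weeks the IVD cells were divided further into a nucleus pulposus (NP) subcluster and subclusters of the inner (IAF) and outer (OAF) annulus fibrosus. The files give only numbers for them, so the names were matched here, OAF by its markers and NP and IAF with less certainty. NP and IAF, the gel core and the inner ring of the disc, had median UMIs per cell of 6997 to 10580 and 2442 to 6403 in the libraries, in that order. OAF cells, from the fibrous outer ring, were set apart by their markers (Col1a1, Lum, Igfbp5, Igfbp6, Myoc and Fibin), which summed to 42320 to 77510 CPM there and to 2260 to 5291 CPM in NP. They numbered 454 to 2335 a library.

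All 10 genes were lower in OAF than in NP cells in each of the 8 libraries. Since the clusters were built on these cells, this is a description without a test. How many of all genes were lower in OAF cells in the same way was not counted. The OAF level was a median of 59.3% of the NP level for Aldoa (range 51.3 to 69.8%), the least reduced member, and 48.1% for Vegfa (31.7 to 55.9%). Bnip3 was at 37.7%, Eno1 at 31.5%, Pgk1 at 29.4% and Ldha at 29.2%. Higd1a was at 24.1% (17.7 to 31.8%) and Slc2a1 at 23.2% (8.72 to 32.1%). The lowest were Stc2 at 17.6% and Egln3 at 14.8%, the latter with a wide range of 7.10 to 42.8%. Of the 5 IVD markers, Acan was at 9.41%, Col2a1 at 22.8%, Sox9 at 29.6% and Comp at 78.8%, while Fmod was higher in OAF, at 198% of the NP level. IAF levels were close to those of NP, with medians between 94.6 and 104% for the 10 genes.

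**Figure D3:**
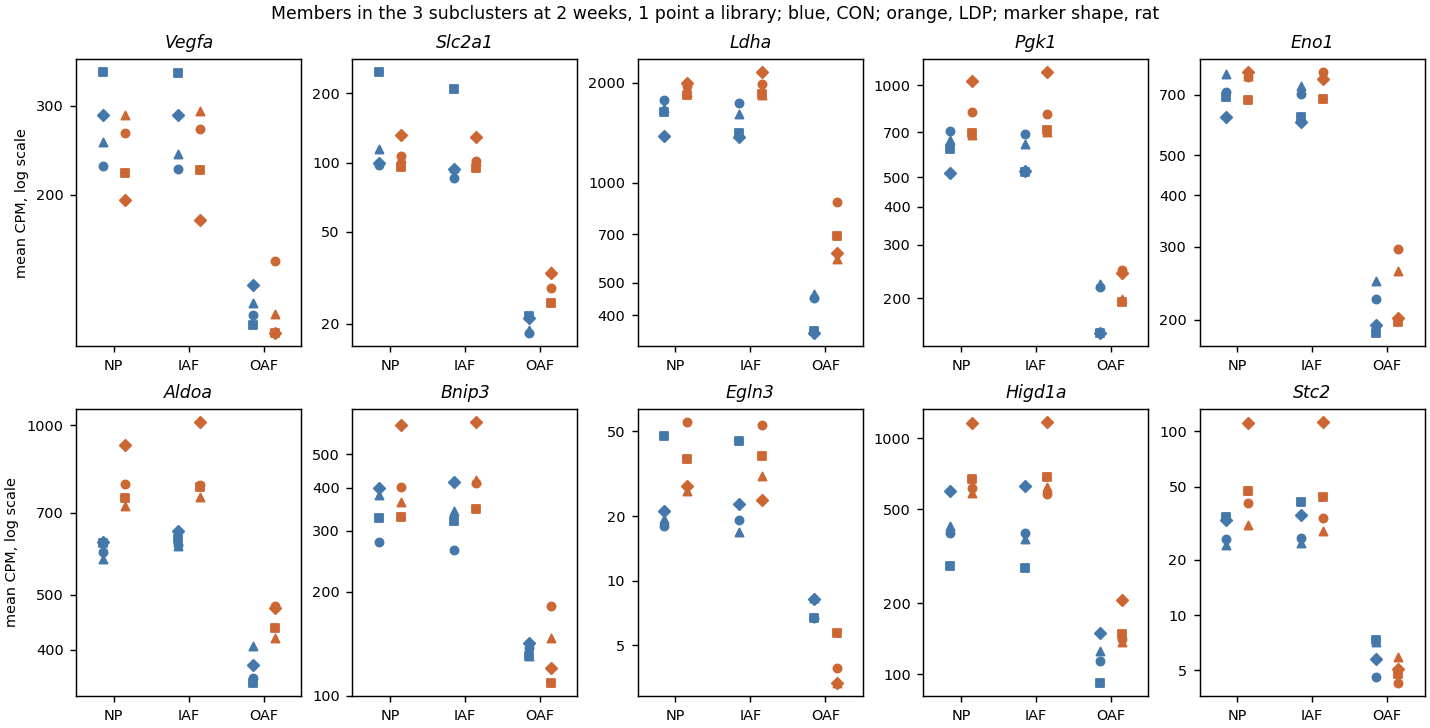
Mean CPM of each member in NP, IAF and OAF cells of every 2-week library on a log axis, CON in blue and LDP in orange, with a marker shape for each rat. NP and IAF points lie side by side and OAF points below them for all 10 genes, while in OAF the LDP points of Ldha, Slc2a1 and Aldoa lie above and those of Egln3 below all CON points.

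In OAF cells 1 member was called, Ldha, which was 1.70-fold higher in LDP discs, where 1.39% of 11694 genes were called. Ldha was at 449.6, 358, 463 and 353 CPM in CON discs of rats 1 to 4. In LDP discs it was at 878, 690.4, 588 and 615 CPM. The groups lay apart and all 4 rats were higher, for a difference of 0.76 ± 0.15 (adjusted p = 0.0396) between means of 406 ± 58.7 and 693 ± 131 CPM (SD, n = 4). Its size was 0.59 to 0.90 over 14 alternative settings, where changes of filter and block cannot move it. Of these settings 8 lost the call, among them edgeR and leaving out rat 1, 2 or 3, with an adjusted p of at most 0.192. OAF markers summed to 53297 to 77510 CPM in CON and 42320 to 73950 CPM in LDP, and NP markers to 257 to 345 and 256 to 435 CPM. Erythroid markers summed to 8.50 to 414 CPM in CON and 2.30 to 2036 CPM in LDP, and lymphoid markers to 0.265 to 5.79 and 0.439 to 56.2 CPM. Their part in the difference was not tested.

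Slc2a1 in OAF cells was at 18.2, 21.6, 18.8 and 21.3 CPM in CON and 28.5, 24.5, 33.8 and 33.1 CPM in LDP discs. The groups were apart and every rat was higher in LDP, but the difference of 0.56 ± 0.18 did not pass (adjusted p = 0.271). Egln3 went the other way, from 6.74, 6.69, 8.32 and 8.25 CPM to 3.92, 5.69, 3.35 and 3.34 CPM. All 4 rats were lower in LDP by -0.76 ± 0.24 (adjusted p = 0.273), at levels of a few CPM. Stc2 was also lower in all 4 rats, at a mean of 6.21 ± 1.28 CPM in CON and 5.01 ± 0.684 CPM in LDP discs (-0.25 ± 0.22, adjusted p = 0.705). Higd1a was at 114, 91.7, 125 and 149 CPM in CON and 141, 147.5, 137 and 206 CPM in LDP discs. It was higher in LDP in every rat, by 0.39 ± 0.14 (adjusted p = 0.356). Aldoa was likewise higher in every rat, without overlap of the groups (0.28 ± 0.13, adjusted p = 0.458). Pgk1 (0.25), Eno1 (0.16), Bnip3 (0.02) and Vegfa (-0.02) had adjusted p of 0.591 to 0.973, and Vegfa turned to 0.07 under TMM scaling. Among the oxygen sensing genes Epas1 rose in OAF cells, from 38.4, 29.0, 39.5 and 44.3 CPM to 77.5, 65.7, 63.8 and 84.1 CPM (0.93 ± 0.15, adjusted p = 0.0171), as 1 of 9 tested. It is named here because it was called, and whether its call holds under the alternative settings was not examined. None of the 18 further glycolysis genes and none of the 19 other HIF targets tested was called there.

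In NP and IAF cells limma called no member, and 0% of 10817 and of 10969 genes were called by limma, with 1078 and 1477 at an unadjusted p under 0.05. By edgeR 1 gene was called in each, and by DESeq2 200 in NP and 205 in IAF, Higd1a among them in both. In IAF cells TMM scaling moved the median of all genes from -0.15 to -0.01 and that of the members from 0.40 to 0.57. Higd1a had the highest value in both, 0.82 ± 0.16 in NP (adjusted p = 0.233) and 0.87 ± 0.16 in IAF (adjusted p = 0.126). In NP it was at 399, 289, 427 and 599.6 CPM in CON and 615, 674, 587 and 1165 CPM in LDP discs. LDP of rat 4 again stood far above the other LDP libraries. Stc2 followed with 0.80 ± 0.24 in NP (adjusted p = 0.393) and 0.57 ± 0.27 in IAF (adjusted p = 0.394), which were 0.48 and 0.21 without rat 4. Ldha was at 1777, 1635, 1679 and 1382 CPM in CON and 1959, 1832, 1871 and 1995 CPM in LDP NP cells. Those groups did not overlap, and the difference was 0.25 ± 0.12 (adjusted p = 0.538), or 0.15 without rat 4. Aldoa in NP did not overlap either (0.39 ± 0.12, adjusted p = 0.395). In IAF the groups lay apart for Ldha (0.36 ± 0.14, adjusted p = 0.341), Pgk1 (0.47 ± 0.18, adjusted p = 0.336) and Aldoa (0.40 ± 0.14, adjusted p = 0.312). Slc2a1 and Vegfa were the 2 members with negative values in both, between -0.23 and -0.08, and Slc2a1 in IAF turned to 0.08 under TMM scaling.

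The markers of other cells were summed here too. In IAF cells the outer annulus markers, whose cells held Higd1a at 24.1% of the NP level, summed to 4080 to 9751 CPM in CON and 2084 to 2900 CPM in LDP discs, without overlap. NP markers there summed to 646 to 1106 and 973 to 1604 CPM, endothelial markers to 18.0 to 184 and 11.9 to 25.7 CPM, and early-response genes to 1802 to 5745 and 1085 to 1593 CPM. In NP cells the outer annulus markers summed to 3048 to 5291 CPM in CON and 2260 to 4371 CPM in LDP discs, and early-response genes to 1372 to 6958 and 993 to 1248 CPM. The median UMIs per IAF cell were 2442 to 3789 in CON and 4099.5 to 6403 in LDP libraries, without overlap, and those per NP cell 6997 to 8544 and 7894 to 10580. Their part in the differences was not tested.

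The effect of puncture was then compared between NP and OAF cells of the same rats, as NP effect minus OAF effect. Of 11586 genes 5.13% were called, and 3 of the 10 members, with a median of 0.11 for the members against 0.06 over all genes. Stc2 had the larger difference in NP, by 1.05 ± 0.22 (adjusted p = 0.0292), in all 4 rats. Single rats lay between 0.59 and 1.89, with rat 4 the highest, and the OAF levels of Stc2 were a few CPM. Higd1a also had the larger difference in NP, by 0.42 ± 0.10 (adjusted p = 0.0380), with single rats between 0.32 and 0.54. For Slc2a1 the effect was lower in NP than in OAF cells by -0.79 ± 0.19 (adjusted p = 0.0478), in all 4 rats and between -1.53 and -0.21. Egln3 (1.27 ± 0.32, adjusted p = 0.0513, 3 of 4 rats) and Ldha (-0.52 ± 0.13, adjusted p = 0.0520, lower in NP in 4 of 4 rats) were just outside the threshold, and the other 5 members had adjusted p of 0.374 to 0.848. edgeR and DESeq2 called none of the members for this difference, and with any 1 rat left out the limma calls of Stc2, Higd1a and Slc2a1 were lost, apart from that of Slc2a1 without rat 4. Egln3 was called without rat 2 (adjusted p = 0.00234). With a pseudocount of 10 Higd1a was the only member called, and under TMM scaling Stc2 was.

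Outside the IVD class the authors named endothelial, myeloid and lymphoid classes. A class entered here where a library had at least 20 cells of it, and the levels are given as a percent of the IVD level of the same library. The 5 IVD markers stood at medians of 4.43 to 8.66% in these classes, which should lack them, so a member at or below that level is read as background. Myeloid cells entered from 15 libraries, 3 of them LDP at 8 weeks, and their levels varied between the groups, so they are given by group, in the order CON and LDP at 2 weeks, CON and LDP at 8 weeks, without a test and on few cells in some libraries. Slc2a1 was at 95.6 to 107%, 46.2 to 138%, 53.3 to 111% and 223 to 280.5% of the IVD level. Aldoa was at 96.8 to 155%, 116 to 164%, 121 to 179% and 222 to 234%. Ldha was at 37.8 to 62.5%, 46.5 to 86.6%, 23.7 to 63.6% and 79.3 to 111%. Slc2a1 and Aldoa were highest in the LDP libraries at 8 weeks, and Ldha there overlapped with LDP at 2 weeks alone. Vegfa was at 12.2 to 48.1%, 21.6 to 90.4%, 9.05 to 51.2% and 35.1 to 139%, and Eno1 at 31.9 to 80.9%, 69.8 to 83.3%, 40.7 to 107% and 83.6 to 127%. Pgk1 lay between 31.2 and 87.6% over all 15 libraries, Higd1a between 16.1 and 49.99% and Bnip3 between 7.13 and 26.9%, with overlap of all 4 groups. Egln3 and Stc2 were scattered, at 0 to 155% and 0 to 59.6%, and the Stc2 median of 5.21% was no higher than the IVD markers.

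**Figure D4:**
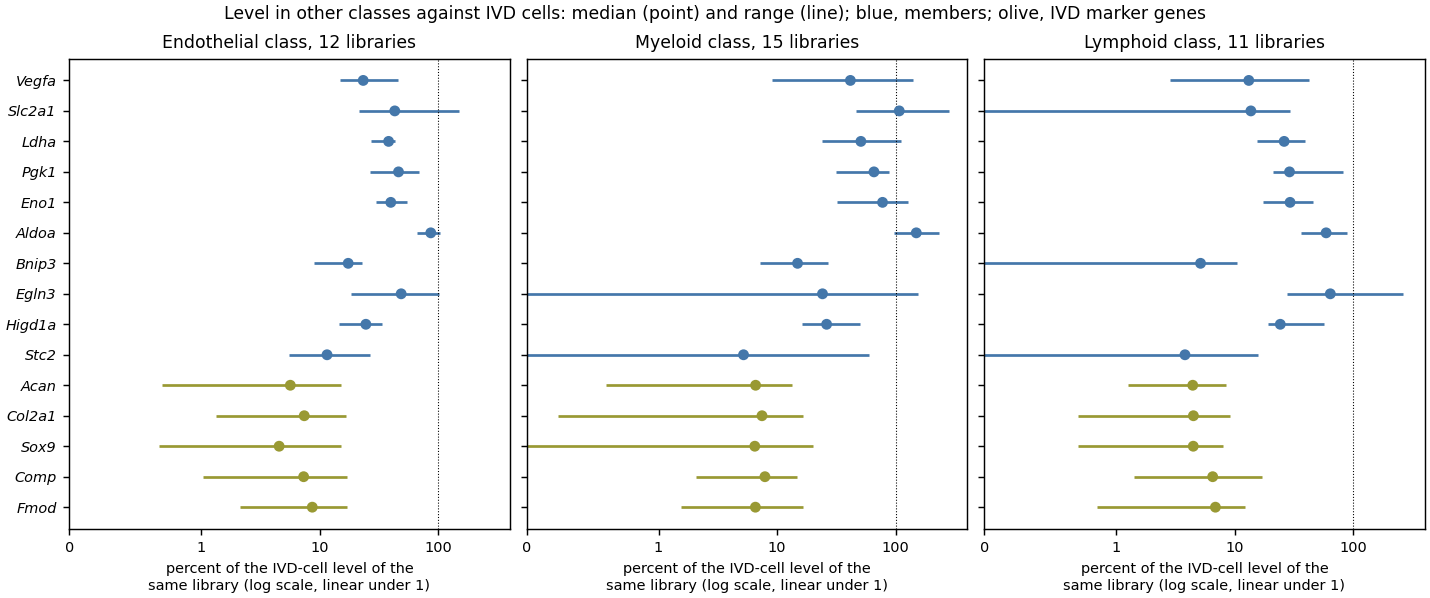
Level of each member (blue) and of the IVD markers (olive) in endothelial, myeloid and lymphoid cells as a percent of the level in IVD cells of the same library, on a log axis (linear under 1%) with the median as a point and the range as a line. The ranges pool the groups, of which CON at 8 weeks had no endothelial class. Those of Aldoa and Slc2a1 in myeloid cells end at 234% and 280.5%, both in LDP libraries at 8 weeks. Stc2 in myeloid and lymphoid cells and Bnip3 in lymphoid cells sit at or below the IVD markers.

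In endothelial cells of 12 libraries Aldoa was at 86.5% of the IVD level, Egln3 at 48.7% (18.4 to 102%), Pgk1 at 46.2% and Slc2a1 at 43.0% in the median. No CON library at 8 weeks had cells in this class, so the LDP values of that time have no control here. Slc2a1 ranged from 21.4 to 46.5% at 2 weeks and from 44.2 to 149% in LDP discs at 8 weeks. Eno1 was at 39.8%, Ldha at 38.1% and Higd1a at 24.5%. Vegfa was at 14.8 to 25.5% at 2 weeks and at 27.6 to 46.0% in LDP discs at 8 weeks. Bnip3 and Stc2 were lowest at 17.4% and 11.5%. In lymphoid cells of 11 libraries Egln3 at 64.1% and Aldoa at 59.1% were highest, the former with a wide range (27.9 to 261%). Ldha, Pgk1, Eno1 and Higd1a lay between 24.3 and 29.4%, Slc2a1 at 13.7% and Vegfa at 13.2%. Bnip3 at 5.16% was within the range of the IVD markers and Stc2 at 3.82% below it. The thinned share of cells with a Bnip3 UMI was 24.2% in IVD and 1.82% in lymphoid cells (medians over libraries), and that of Vegfa 20.7% and 1.90%, while Aldoa reached 59.6% in myeloid cells.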

How the data were processed

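The authors sequenced 10x 3′ v3.1 libraries on a NovaSeq, filtered cells in Partek Flow on mitochondrial share (under 10%), gene number (up to 3000) and UMI number, and clustered each group separately. The labels name the build rn6. The deposited files hold, per cell, log2(CPM + 1) of each gene and the total expected count, with the deposited percent of mitochondrial and ribosomal counts and the authors' class and, at 2 weeks, subcluster. Back-transformed values gave whole counts for 99.4 to 99.5% of entries within 0.02, and no member had a split count. Doublets were not called here.

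CPM values were averaged over cells per library and population (at least 20 cells), genes with a mean of at least 1 CPM were kept, and log2(mean + 1) was fitted with limma 3.58.1 (R 4.3.3) with trend, the rat as block and Benjamini-Hochberg adjustment over all genes tested. The 2 times were fitted together. The block follows from the animal, since each rat gave both a CON and an LDP library. The titles give only a number, and equal numbers were taken as the same rat. Deviations of these pairs from the group means correlated only between -0.185 and 0.465 over 11150 genes. NP and OAF effects were compared by their difference within each rat. Shares of cells were computed for 1000 UMIs drawn per cell, which left out 0.291 to 0.994% of IVD cells per group, and compared by a two-sided exact permutation test. Alternatives used edgeR 4.0.16 and DESeq2 1.42.0 on summed, rounded counts. Python 3.11.15 with pandas 2.3.3 and scipy 1.17.1 was used. Steps were checked on simulated data.

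Named were all 10 members, and from each of the 3 further lists the 2 genes with the largest change in each direction in IVD cells. Epas1 in OAF cells was named in addition, because it was called. The members and lists were chosen with earlier results of these data known. All columns of per-sample values were used or mapped. The gene whose shares of cells were used to match NP and IAF numbers to names is not reported here.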

Additional observations from a re-analysis of the deposited data

Results flagged for a closer look

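Of 100 groups of 4 libraries tested for a library far from the rest, 13 had one. Chance gives about 1 in 20 for independent groups, but IVD cells pool the NP, IAF and OAF cells of the same libraries. The same deviation can thus count more than once, and no excess over chance can be read from the count. CON rat 2 accounted for 5 and LDP rat 4 for 5. In IVD cells CON rat 2 had Slc2a1 at 210 CPM (80.02 to 95.2 in the other 3 libraries of its group) and Egln3 at 41.4 CPM (17.0 to 20.5). The same library had Slc2a1 at 247 CPM in NP cells (97.5 to 115) and 208 CPM in IAF cells (85.8 to 94.9), and Egln3 at 47.2 CPM in NP cells (17.9 to 21.3). It also had the high early-response level and the smallest number of cells at 2 weeks, whose part was not tested.

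LDP rat 4 had Higd1a at 1026 CPM in IVD cells (562 to 593 in the other 3), 1165 CPM in NP cells (587 to 674) and 206 CPM in OAF cells (137 to 148). Its Stc2 was at 96.2 CPM in IVD cells (27.5 to 38.9) and its Aldoa at 1014 CPM in IAF cells (746 to 782). Erythroid markers in this library summed to 1375 CPM in IVD cells and 2036 CPM in OAF cells, the highest of its group in each. That sum and the high ribosomal share and low Hif1a of this library were not tested for their part. Without rat 4 the difference in IVD cells was 0.82 for Higd1a and 0.38 for Stc2. Those of Higd1a in NP and OAF cells and of Aldoa in IAF cells without rat 4 are not given.

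At 8 weeks LDP rat 5 had Slc2a1 at 175 CPM in IVD cells (103 to 113), LDP rat 7 had Egln3 at 38.2 CPM (26.9 to 27.99), and CON rat 6 had the lowest Eno1 of its group at 441 CPM (517 to 529).

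In a limma test of NP effect minus OAF effect, Slc2a1 (-0.79), Higd1a (0.42) and Stc2 (1.05) passed the threshold, where 5.13% of 11586 genes did. edgeR and DESeq2 called none of the members. The 3 limma calls were also lost with a rat left out, apart from that of Slc2a1 without rat 4. The Slc2a1 value includes the flagged CON library of rat 2, and the Higd1a and Stc2 values include the flagged LDP library of rat 4.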

How the results depend on the processing

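Over 165 results and 2605 alternative values, 2325 were labelled the same as the main value. For a difference this meant the same direction and side of the threshold, and for a count of called genes an equal or similar count. Many of these fits could not move their result, such as those without a rat of the other time. Most differences were not called to begin with, so the total does not measure robustness. Members called changed as follows. In IVD cells at 2 weeks the count went from 1 to 0 with a pseudocount of 10, without the rat block (no pairing of libraries, Higd1a adjusted p = 0.216) and with equal weight to NP, IAF and OAF, and was 0 to 0 with any rat left out. At 8 weeks it went from 0 to 1 (Higd1a) by DESeq2 and was 0 to 1 over the left-out rats, 1 without rat 4. DESeq2 also gave 1 (Higd1a) in all cells at both times, in NP and in IAF. In OAF cells 1 became 0 (Ldha) without the filter, at 10 CPM, on CPM of summed counts, by edgeR and for cells under 5% mitochondrial reads, and was 0 without rats 1, 2 or 3 and 1 without rat 4. For NP minus OAF 3 became 1 with a pseudocount of 10 (Higd1a) and under TMM (Stc2), 0 by edgeR and DESeq2, and 0 to 1 over left-out rats, 1 without rat 2 (Egln3) or rat 4 (Slc2a1). For CON over time 1 became 0 without the filter, under TMM, edgeR, DESeq2 and under 5% mitochondrial reads, and 0 to 2 over left-out rats, 2 without rat 2. The causes were not tested, beyond the fewer samples of left-out fits.

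Counts over all genes moved more. In IVD cells they went from 20 to between 0 (without rat 2) and 282 (DESeq2) at 2 weeks, and from 30 to between 1 (without rat 7) and 577 (DESeq2) at 8 weeks, with 1 to 567 over left-out rats. The 8 minus 2 weeks difference went from 0 up to 13, all cells from 0 up to 147 and from 1 to between 0 and 211, NP from 0 up to 200 and IAF from 0 up to 205. OAF went from 163 to between 86 (at 10 CPM) and 272 (without rat 4), NP minus OAF from 594 to between 59 (edgeR) and 615 (TMM), and CON over time from 2119 to between 1109 and 3083.

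Directions that turned belonged to differences that were not called. By TMM, edgeR and DESeq2, in that order, IVD cells at 8 weeks gave Slc2a1 0.077, 0.067 and 0.082, Ldha 0.15, 0.10 and 0.12, Hif1a 0.13, 0.074 and 0.089, and Epas1 0.098, 0.12 and 0.14. In the same order Slc2a1 gave 0.094, 0.080 and 0.095 in all cells at 8 weeks and 0.077, 0.014 and 0.029 in IAF, Vegfa gave 0.066, 0.046 and 0.046 in OAF, and Pgk1 gave 0.0054, 0.023 and 0.024 in CON over time. With cells under 5% mitochondrial reads Cited2 in IVD cells at 2 weeks was -0.0024, Egln3 at 8 weeks -0.0082 in IVD and -0.00089 in all cells, and Eno1 for 8 minus 2 weeks -0.016. On CPM of summed counts that Eno1 value was -0.014 and Bnip3 in OAF -0.0071. Shares from all UMIs of a cell gave Vegfa 2.77 and Slc2a1 0.545 percentage points at 2 weeks, and Vegfa 2.65 and Slc2a1 5.22 at 8 weeks.

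With each rat left out in turn, Slc2a1 at 2 weeks ranged from -0.33 to 0.24 in IVD cells, -0.42 to 0.13 in all cells, -0.45 to 0.14 in NP and -0.26 to 0.26 in IAF, positive only without rat 2. At 8 weeks it ranged from -0.20 to 0.10 in all cells, and for 8 minus 2 weeks from -0.33 to 0.23. In IVD cells at 2 weeks Hif1a ranged from -0.38 to 0.18, Arnt from -0.53 to 0.061 and Cited2 from -0.084 to 0.24. At 8 weeks Hif1a ranged from -0.10 to 0.11 and Ldha from -0.13 to 0.064. For 8 minus 2 weeks Vegfa ranged from -0.43 to 0.18, Pgk1 from -0.30 to 0.031 and Eno1 from -0.040 to 0.072. In OAF Vegfa ranged from -0.15 to 0.075 and Bnip3 from -0.11 to 0.11, and Eno1 for NP minus OAF from -0.16 to 0.032. In all cells Eno1 at 2 weeks ranged from -0.021 to 0.16, and at 8 weeks Egln3 from -0.015 to 0.11 and Stc2 from -0.032 to 0.48. For CON over time Vegfa ranged from -0.096 to 0.22, Ldha from -0.032 to 0.086 and Pgk1 from -0.088 to 0.040. Shares ranged, in percentage points, from -2.77 to 1.29 for Slc2a1 at 2 weeks, and at 8 weeks from -1.81 to 0.226 for Slc2a1, -6.33 to 0.488 for Vegfa and -1.02 to 3.50 for Ldha.

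With 4 rats a time, the exact test of shares could not go below 0.0286, and in OAF cells Egln3 and Stc2 rest on a few CPM.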

Other observations

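The members did not vary as 1 block from library to library. With group means removed, the log2 levels in IVD cells of the 16 libraries gave 45 pairwise correlations with a median r of 0.13, of which 5 were over 0.5 and 17 below 0. The highest were Pgk1 with Aldoa (r = 0.73) and Bnip3 with Higd1a (r = 0.72, and 0.84 without rats 2 and 4), and the lowest was Vegfa with Pgk1 (r = -0.66). These are descriptions over libraries that share depth and animal, given with no test.

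Cells with no class name were present in all 16 libraries, and their levels, as a percent of the IVD level of the same library, varied between the groups. In the order CON and LDP at 2 weeks, CON and LDP at 8 weeks, Ldha was at 67.7 to 86.2%, 44.7 to 87.97%, 26.9 to 35.1% and 73.5 to 187%. Vegfa was at 60.4 to 92.7%, 27.3 to 82.0%, 17.1 to 26.6% and 21.3 to 52.5%, and Aldoa at 70.1 to 107%, 51.8 to 96.8%, 67.3 to 139% and 91.3 to 265%. Bnip3 was at 13.2 to 25.4%, 30.7 to 67.5%, 12.9 to 26.4% and 4.18 to 21.9%. The 5 IVD markers in these cells were at 2.41 to 23.0%, 23.2 to 89.2%, 4.55 to 9.73% and 0.303 to 13.3% of the IVD level in the same order, highest in LDP at 2 weeks as Bnip3 was, and their part was not tested. The groups were clustered separately, so an unnamed cell need not be the same kind of cell in each.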
